A study of Mus musculus with 2 samples.

Results

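In G1E-ER4 cells 10 genes of the integrated stress response were examined: the 4 kinases that phosphorylate the translation initiation factor eIF2, and 6 genes of the response they start. They were taken from both gene tables by Ensembl identifier, and all 10 were found among the 43346 Ensembl genes listed, with 39 transcripts in the transcript tables. G1E-ER4 is an immortalized male mouse erythroid line in which Gata1, lost in the parent line, has been restored in a form that estradiol switches on. The labels give the strain as C57BL/6J. Both libraries, biological replicates 1 and 2, come from cells given 10 nM 17β-estradiol for 24 h to induce differentiation, and total RNA was sequenced. All values come from this 1 line and this 1 group. The values are therefore levels in induced cells, with no contrast and no p-value. Where 2 values are given for a gene, replicate 1 comes first.

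Phosphorylated eIF2 slows the start of translation on most mRNAs but lets a few be translated better, among them Atf4, whose leader carries short upstream reading frames. ATF4 then activates genes for amino acid supply and stress handling, and a phosphatase brought in by PPP1R15A or PPP1R15B removes the phosphate again. In erythroid cells the heme-regulated kinase, encoded by Eif2ak1, is known for matching globin synthesis to the heme supply. The response acts through protein phosphorylation and translation, neither of which is measured by RNA levels.

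Upstream starts are shown first because they are the feature through which Atf4 and Ddit3 mRNAs are known to be controlled. They were read from the GENCODE M21 sequence of the coding transcript with the highest TPM (a transcript level per length, as a share of the library). Each stretch below has 6 bases before the start codon and 3 after it, 5′ to 3′, with the start codon in capitals.
Atf4 upstream start 1: tctctcATGggg
Atf4 upstream start 2: gccaccATGgcg
Atf4 upstream start 3: taagccATGgcg
Atf4 main start: cacaacATGacc
Ddit3 upstream start 1: tatatcATGttg
Ddit3 upstream start 2: ttgaagATGagc
Ddit3 main start: gcagtcATGgca

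In Atf4-201 the leader before the main start is 594 nt long. Its upstream start 1 opens a frame of 36 codons and start 2 a frame of 3 codons, both of which end before the main start. Start 3 opens a frame of 59 codons that runs past the main start in another frame. Ddit3-201 has a leader of 186 nt with 2 upstream starts, which open frames of 34 and 31 codons and share 1 stop. Of the 10 genes 7 had at least 1 upstream start, and in 3 of them (Atf4, Eif2ak2 and Eif2ak3) a frame overlapped the main coding sequence. Ppp1r15a, Ppp1r15b and Eif2ak3 each had 3, and Eif2ak1, Eif2ak4 and Trib3 had none. Among 8390 detected nuclear protein-coding genes read in the same way, 46.9% had an upstream start and 1344 genes an overlapping frame. This is a property of the annotated sequence, and use of these starts was not measured.

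The 10 genes together held 30324 of 50277914 expected counts (estimated reads) in replicate 1 and 29789 of 47478888 in replicate 2. All 10 reached 1 TPM in each library, the rule for calling a gene detected. Of all 21461 nuclear protein-coding genes 40.2% met the same rule. Nuclear protein-coding genes held 22.7% and 22.9% of all TPM. A TPM over those genes alone would be 4.41 and 4.37 times higher. The expected count of every 1 of the 10 genes was whole in both libraries within 0.005. All 8 erythroid markers were detected, among them Klf1 (mean TPM 26.9) and Slc4a1 (3.21). Their summed TPM, Gata1 included, was 1376 in replicate 1 and 1395 in replicate 2, and their median was 46.5. Gata1 was detected too, but it was restored in this line by design, so its reads do not test the erythroid label. Of the other cell types, 3 of 6 megakaryocyte markers (summed TPM 31.4 in replicate 1 and 22.9 in replicate 2) and 2 of 6 mast cell markers (29.6 and 31.4) were detected. Among the mast cell markers Cpa3 had a mean TPM of 27.4, near that of Klf1 but below the erythroid median of 46.5. None of 19 granulocyte and macrophage, lymphoid, stromal and endothelial markers was detected in both, with summed TPM of 1.16 and 4.28, 0.13 and 0.22, and 0.13 and 0.05. Csf1r, Ly6g, Cd3e, Col1a1 and Cdh5 had no read. Other granulocyte and macrophage markers had reads: Mpo 1 and 70 counts, Elane 0 and 17, Cd68 22 and 53, and Adgre1 19 and 18. Cd68 reached 2.08 TPM in replicate 2, against 0.9 in replicate 1. The part of such cells in the values below was not tested.

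**Figure D1:**
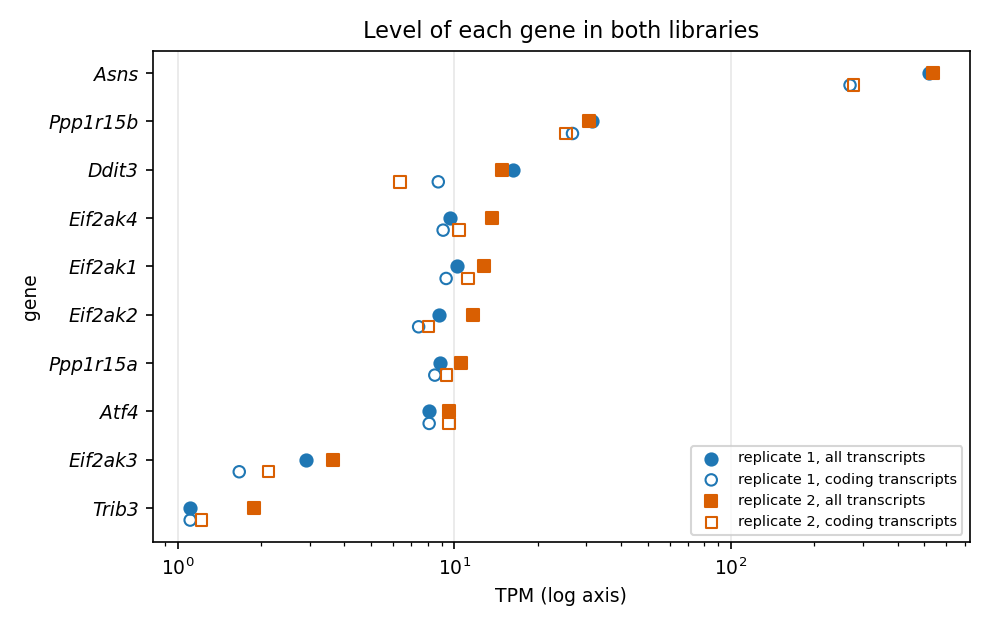
TPM of the 10 genes (log axis) in replicate 1 (circles) and replicate 2 (squares), ordered by mean level. Filled symbols count all transcripts of a gene and open symbols only transcripts annotated as protein-coding. Asns stands at 518 and 535, far above the other 9 genes, and Ddit3 and Asns move furthest to the left when only coding transcripts are counted.

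RNA of all 4 kinases was detected, and on whole-gene TPM the libraries of 3 of them overlapped. Eif2ak1 (ENSMUSG00000029613, chromosome 5, 143817788 to 143904251 in M21 on mm10, as for the genes below), the heme-regulated kinase HRI, had 10.22 and 12.83 TPM, mean 11.5 ± 1.85 (SD, n = 2). It shares 487 exon bases with Aimp2 (310 and 384 counts) and 172 with Ankrd61 (0 and 7), both on the opposite strand. The strand setting of the counting is not given in the sources used here. Eif2ak4 (chromosome 2, 118388618 to 118475234) encodes GCN2, which senses uncharged tRNA, and had 9.66 and 13.72 TPM, mean 11.7 ± 2.87. Eif2ak2 (chromosome 17, 78852564 to 78882573), which encodes the double-stranded RNA sensor PKR, had 8.77 and 11.72 TPM, mean 10.2 ± 2.09. Across libraries the values of these 3 genes overlapped, although within each library Eif2ak2 was the lowest of the 3. Eif2ak3 (chromosome 6, 70844515 to 70905245), the gene of the endoplasmic reticulum kinase PERK, was lowest at 2.91 and 3.64, and both values lay below every value of the other kinases.

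Within each library the deposited credibility bounds of TPM gave the same picture. For Eif2ak1 they ran from 9.44 to 10.8 in replicate 1 and from 11.8 to 13.4 in replicate 2. For Eif2ak4 they ran from 8.86 to 10.5 and from 12.2 to 14.9, and for Eif2ak2 from 7.97 to 9.69 and from 10.5 to 13.0. These bounds overlap in both libraries, while those of Eif2ak3, 2.43 to 3.72 and 2.76 to 5.12, lay below them. The level of the bounds is not given in the sources used here.

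Eif2ak1 made up 31.5% ± 1.25 of the summed kinase TPM, Eif2ak4 31.7% ± 1.51, Eif2ak2 27.9% ± 0.125 and Eif2ak3 8.95% ± 0.378 (SD, n = 2 for each). Eif2ak1 over Eif2ak3 was 3.51 and 3.52 on TPM, and 5.59 and 5.27 on coding transcripts. Eif2ak4 over Eif2ak1 was 0.945 and 1.07, so neither gene led in both libraries. Eif2ak1 over Eif2ak2 was 1.17 and 1.09 on TPM, and 1.26 and 1.39 on coding transcripts. On coding transcripts alone Eif2ak1 was higher in both, at 9.34 and 11.22 against 9.11 and 10.4 for Eif2ak4, and its share became 34.6% ± 0.953. Eif2ak2, at 7.43 and 8.08 on that scale, lay below every value of both and no longer overlapped them. That alternative was added after the data were seen.

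Transcripts without a coding sequence held at least 10% of TPM in 8 of the 10 genes, against 42.2% of detected nuclear protein-coding genes. On expected counts they did so in 4 of the 10, against 29.9%. Eif2ak1-201, the coding transcript, held 89.4% ± 2.78 of Eif2ak1 TPM and 97.3% ± 0.732 of its expected counts (SD, n = 2). Eif2ak2-201 held 84.7% and 68.9% of Eif2ak2 TPM, with 1027.41 and 1060.72 of its 1053 and 1116 counts. Eif2ak2-203, a processed transcript of 574 nt, had 1.25 and 34.7 counts, which made up 0.95% and 20.9% of TPM. TPM divides by length, so few reads on a short transcript give a large share.

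Eif2ak3-201 held 51.7% and 58.4% of Eif2ak3 TPM, and the transcripts holding the remainder were not the same in both libraries. In replicate 1 the retained-intron transcript Eif2ak3-202 (2625 nt) held 29.0%, with 69.7 counts, and in replicate 2 it held 0.18%, with 0.52 counts. In replicate 2 the 347 nt retained-intron transcript Eif2ak3-203 held 41.4% on 10.6 counts. The gene had 295 and 304 counts in all, so its transcript shares rest on few reads.

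Eif2ak4 was spread over 8 transcripts, 7 of them coding, and its leading transcript was not the same in both libraries. Eif2ak4-201 led in replicate 1 with 27.1% of TPM against 12.97% in replicate 2. The processed transcript Eif2ak4-208 (517 nt) led in replicate 2 with 24.2%, on 41 counts, against 5.63% on 7.14 counts in replicate 1. Among the coding transcripts with 10% or more in either library, Eif2ak4-204 varied least in share of TPM, with 15.9% and 17.1%. In TPM itself Eif2ak4-206 varied least, at 1.35 and 1.21, against 1.53 and 2.35 for Eif2ak4-204. All 5212 exon bases of Eif2ak4-201 lie in exons of the gene's other coding transcripts, so the split among them is an estimate.

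**Figure D2:**
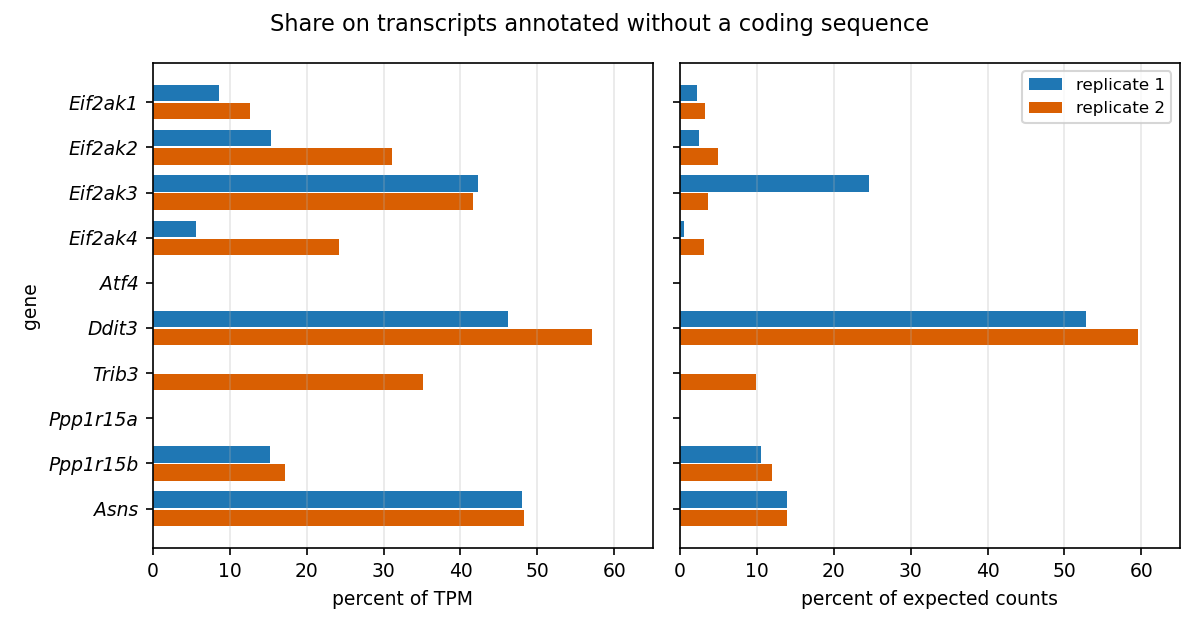
Percent of each gene's TPM (left) and of its expected counts (right) on transcripts that M21 annotates without a coding sequence, in replicate 1 (blue) and replicate 2 (orange). Ddit3 is high on both scales, at 46.1% and 57.1% of TPM and 52.8% and 59.5% of counts, while Asns falls from 48.1% of TPM to 13.95% of counts.

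Atf4 (ENSMUSG00000042406, chromosome 15, 80255184 to 80257541) encodes the transcription factor at the centre of the response. It had 8.11 and 9.58 TPM, mean 8.85 ± 1.04 (SD, n = 2), on 429 and 481 counts. Its mean stood at the 46.8th percentile of the 8620 detected nuclear protein-coding genes, near their median of 9.76. The tables list 1 transcript for it, so transcript sharing does not enter its level.

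Ddit3 (ENSMUSG00000025408, chromosome 10, 127290774 to 127296288) encodes CHOP, a factor that ATF4 activates and that is linked to cell death under long stress. It had 16.25 and 14.85 TPM, mean 15.6 ± 0.990 (SD, n = 2). The leading transcript in both libraries was Ddit3-202, a retained-intron transcript of 969 nt, with 46.1% and 57.1% of TPM. Only 15.1% of its bases lie in exons of the coding transcripts, so most of its sequence is absent from the coding transcripts. Ddit3-201, the longest coding transcript, held 31.6% and 42.9%. Ddit3-203 is a coding transcript of 600 nt whose bases all lie in other coding exons, and it took 57.4 and 0 counts.

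Ddit3 over Atf4 was 2.00 and 1.55 on the TPM of whole genes, mean 1.78 ± 0.321. On coding transcripts alone it was 1.08 and 0.664, so Ddit3 did not stand above Atf4 in both libraries on that scale. Ddit3 shares 68 exon bases with Mars on the opposite strand, which had 1502 and 1703 counts. Whether counting used strand is not given in the sources used here.

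Trib3 (chromosome 2, 152337422 to 152344032), a pseudokinase that ATF4 and CHOP induce and that restrains them, was the lowest of the 10. It had 1.11 and 1.89 TPM on 70 and 81 counts, at the 2.39th percentile of detected genes. Trib3-201 took every read in replicate 1. In replicate 2 the 504 nt retained-intron transcript Trib3-203 took 7.94 counts, which were 35.2% of the gene's TPM. On coding transcripts the gene stood at 1.11 and 1.22, and the difference between the libraries shrank from 1.64 to 1.09 times.

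Of the genes for the regulatory phosphatase subunits, the constitutive one had the higher RNA level. Ppp1r15b (chromosome 1, 133131143 to 133139783), which encodes CReP, had 31.54 and 30.57 TPM, mean 31.1 ± 0.686 (SD, n = 2). Ppp1r15a (chromosome 7, 45522916 to 45526268) encodes GADD34, the subunit that the response induces to end itself. It had 8.88 and 10.56 TPM, mean 9.72 ± 1.19, and the libraries of the genes did not overlap. Ppp1r15b over Ppp1r15a was 3.55 and 2.89, mean 3.22 ± 0.465, and 2.92 ± 0.316 on coding transcripts.

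Ppp1r15a-201 held 88.4% ± 4.36 of its gene's TPM and Ppp1r15b-201 83.8% ± 1.38 (SD, n = 2). The rest of Ppp1r15b was Ppp1r15b-202 (16.2% ± 1.38), a processed transcript whose 3688 bases all lie within the coding transcript's exons. Ppp1r15b also shares 640 exon bases with Gm26616, an entry on the opposite strand with 175 and 133 counts. The catalytic subunits that both proteins recruit stood higher: Ppp1cc at 74.3 ± 2.17, Ppp1ca at 67.5 ± 5.13 and Ppp1cb at 51.5 ± 6.22.

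Asns (ENSMUSG00000029752, chromosome 6, 7675169 to 7693254), which encodes asparagine synthetase and is a classical ATF4 target, stood far above the other 9 genes. Its TPM was 517.83 and 535.27, mean 527 ± 12.3 (SD, n = 2), rank 44 among 8620 detected genes. It took 63.9% of the expected counts of the 10 genes in replicate 1 and 63.6% in replicate 2, with 19386 and 18940 counts. Asns over Atf4 was 63.9 and 55.9, and 33.2 and 28.9 on coding transcripts.

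Much of that TPM rests on a short transcript. Asns-206, a processed transcript of 448 nt, held 47.5% ± 0.0495 of Asns TPM but 13.7% ± 0.0736 of its counts (SD, n = 2). Of its bases 87.9% lie in exons of the coding transcripts, so reads there could belong to either. Asns-201, the leading coding transcript, held 51.1% ± 0.912 of TPM and 84.8% ± 1.30 of counts. On coding transcripts alone Asns had a TPM of 269.2 and 276.9, still above all the other genes.

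The promoter sequences that RefSeq gives for these genes were searched for TGATGNAA, the core of the element that ATF4 and C/EBP factors bind, on both strands over 250 bases before the start (N is any base). Promoters were found for 9 of the 10 genes. Asns alone among these had a match, and of all 32851 promoters in the RefSeq table (GRCm38.p6) 3.45% had one. The match is shown because Asns has the highest level, with the matched bases in capitals, at chr6:7693214-7693243, minus strand.
Asns: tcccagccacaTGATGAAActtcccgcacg

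It lies 23 to 16 bases before the start that RefSeq gives. M21 starts Asns-201 earlier, at 7693254, so there the same letters are bases 23 to 30 of the transcript, and they overlap both upstream start codons of its leader: the start at position 25 lies wholly within them, and the start at position 22 begins 1 base before them. No binding was measured. The endoplasmic reticulum stress element (CCAAT, 9 bases, CCACG) was in none of the 9 promoters and in 0.113% of all.

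**Figure D3:**
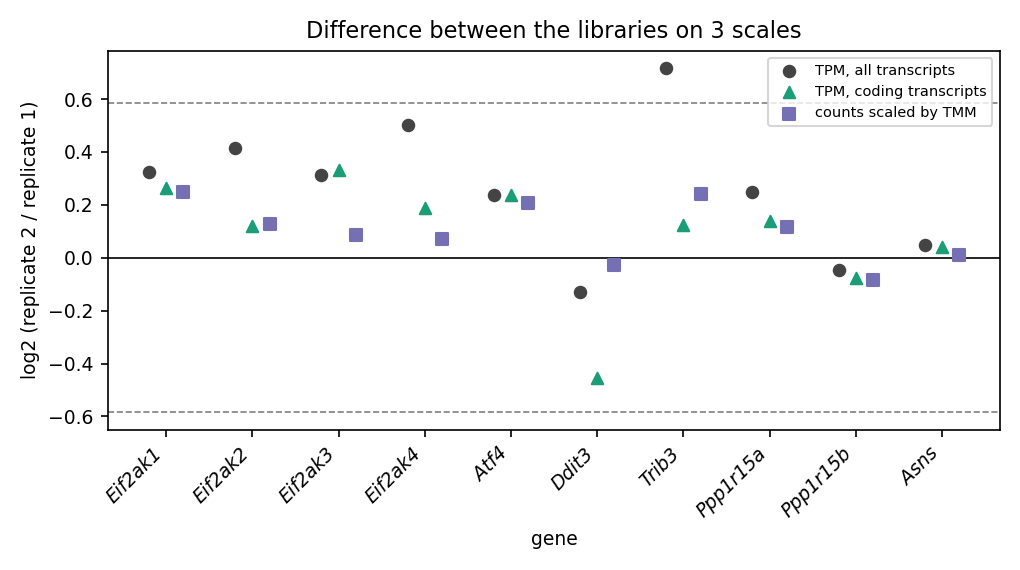
Log2 ratio of replicate 2 over replicate 1 for each gene, on TPM of all transcripts (circles), TPM of coding transcripts (triangles) and TMM-scaled counts (squares), each with 0.1 added. Dashed lines mark 1.5-fold. Trib3 alone passes 1.5-fold, and only on TPM of all transcripts, while counts keep all 10 genes within 1.19-fold.

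Between the libraries, 1 of the 10 genes, Trib3, was called 1.5-fold or more apart on TPM + 0.1. Of 8808 nuclear protein-coding genes whose mean reached 1 TPM, 7.98% were. On expected counts scaled by edgeR's TMM (trimmed mean of M values) 0 of 10 were, against 5.04% of the same genes. TPM was higher in replicate 2 for 8 of the 10, all but Ddit3 and Ppp1r15b, and for 4819 of all 8808 genes. The median log2 ratio was 0.28, against 0.03 for all 8808. On scaled counts 8 of the 10 and 4379 of the 8808 were higher in replicate 2. The median there was 0.10, against -0.0013 for all. Eif2ak4 differed by 1.42 times in TPM but by 1.05 times in scaled counts, and Eif2ak2 by 1.33 and 1.09 times. Eif2ak1 differed by 1.25 and 1.19 times, and Asns by 1.03 and 1.01 times.

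Of 11 genes for eIF2, its exchange factor eIF2B and related factors, 10 were detected, against 40.2% of all nuclear protein-coding genes. The list's median was 16.2 TPM. The gamma subunit gene Eif2s3x led at 111 ± 4.02, followed by Eif2a at 72.1 ± 5.18, Eif2s2 at 63.3 ± 2.31 and Eif2d at 43.4 ± 0.311 (SD, n = 2). Of these, Eif2a and Eif2d are related factors and do not encode subunits of eIF2. Eif2s1, which encodes the alpha subunit that the kinases phosphorylate, had 39.8 and 44.39 TPM. It stood at 1.16 ± 0.143 times the 4 kinases together. The eIF2B subunit gene Eif2b3 had 8.58 ± 0.969. The Y-linked copy Eif2s3y had no read, although the line is labelled male. The limit set by 3 counts was 0.0789 and 0.0833 TPM.

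All 11 regulators of the kinases were detected, against 40.2% of all nuclear protein-coding genes. Their median was 8.07 TPM, below the 9.76 of detected nuclear protein-coding genes. The chaperones Hsp90aa1 (719 ± 7.95), Hspa8 (528 ± 47.0) and Hsp90ab1 (509 ± 9.38) led, which bind many clients besides the heme-regulated kinase. Gcn1l1, whose product activates GCN2, had 25.8 ± 0.530, and Impact, an inhibitor of that activation, 2.78 ± 0.0990. Dnajc3, which restrains PERK and PKR, had 6.24 ± 0.297. Oma1, the mitochondrial protease that starts the signal from mitochondria to the heme-regulated kinase, was lowest at 2.52 ± 0.304.

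**Figure D4:**
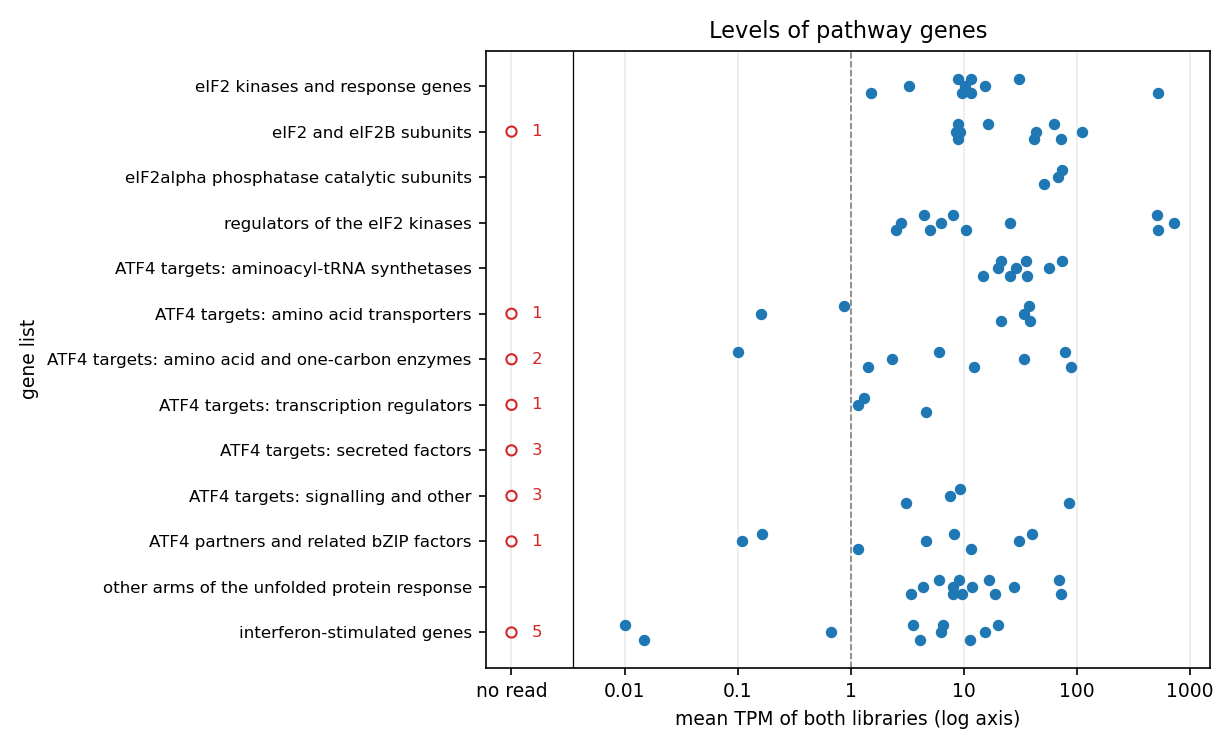
Mean TPM of both libraries (log axis) for each gene of the pathway lists, 1 point a gene. Open red circles with a number show genes with no read in either library, and the dashed line is a TPM of 1. All 9 tRNA synthetase genes lie between 14.7 and 73.7, while the 3 secreted factors have no read.

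Of 40 ATF4 target genes besides Asns, 27 (67.5%) were detected, against 40.2% of all nuclear protein-coding genes, and 10 had no read in either library. Their median TPM was 6.83, against 0.025 for all nuclear protein-coding genes and 9.76 for the detected ones. Shmt2, a mitochondrial serine hydroxymethyltransferase, led at 88.9 ± 1.21. Eif4ebp1, a repressor of cap-dependent translation, had 86.2 ± 4.12, the serine synthesis gene Psat1 79.1 ± 1.46 and the asparaginyl-tRNA synthetase gene Nars 73.7 ± 5.14 (SD, n = 2). Cells express many of these genes without stress, so their detection does not measure ATF4 activity.

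The targets were also counted by role, in a grouping made after the data were seen, and the 40.2% of all nuclear protein-coding genes is again the share to read them against. All 9 aminoacyl-tRNA synthetase genes were detected, and their median was 29.2 TPM. So were 4 of 7 amino acid transporters, 7 of 10 enzymes of amino acid and one-carbon metabolism, 3 of 4 transcription regulators and 4 of 7 signalling and other genes. None of the 3 secreted factors, Fgf21, Gdf15 and Stc2, had a read. Chac1, a glutathione-degrading enzyme that is a common marker of ATF4 and CHOP activity, had no read, against a limit of 0.0599 and 0.0632 TPM. Atf3, a stress factor downstream of ATF4, and Grb10, an adaptor protein, had no read either. Phgdh, the first enzyme of serine synthesis, took 0 and 4 counts, and Psat1, the next enzyme, 5467 and 5557.

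Of 9 related basic leucine zipper factors, 6 (66.7%) were detected, against 40.2% of all nuclear protein-coding genes. Atf2 led at 40.5 ± 1.42, with the oxidative stress factor Nfe2l2 at 30.5 ± 0.247, Nfe2l1 at 11.6 ± 2.31 and Cebpg, an ATF4 partner, at 8.13 ± 1.03 (SD, n = 2). Atf5, itself under upstream reading frames, had 3.81 and 5.51 TPM. Fos had 5 counts in each. Atf3, Atf5 and Cebpb stand in both this list and the target list.

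Lists of genes that act beside PERK and PKR were counted in the same way. All 13 genes of the other arms of the unfolded protein response were detected, and their median was 9.62 TPM. The chaperone genes Calr (72.5 ± 0.389) and Hsp90b1 (69.3 ± 6.23) led, followed by Xbp1 at 27.6 ± 1.92 and Hspa5, the chaperone that holds PERK inactive, at 19.1 ± 0.0778 (SD, n = 2). Creld2 was lowest at 3.40 ± 0.735. Of 15 interferon-stimulated genes, the class to which Eif2ak2 belongs, 7 (46.7%) were detected, near the 40.2% of all nuclear protein-coding genes. Of the list 5 had no read, and its median was 0.675 TPM. Adar, an RNA-editing enzyme, had 11.4 ± 1.58 and Irf9 6.50 ± 0.573 (SD, n = 2), and Isg15 and Ifit3 had no read. Eif2ak2, not counted in that list, stood at 10.2.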

How the data were processed

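Total RNA of 2 libraries was quantified per gene and per transcript on mm10 with GENCODE M4, per the file headers and deposited documentation. For aligner, quantifier version and strand setting, nothing is given in the sources used here. The authors deposited expected counts (estimated, not normalized), TPM scaled to a fixed total over all features, FPKM scaled by length and depth, and transcript shares as percent of gene TPM. Deposited credibility bounds were read as a signal on the TPM scale. Posterior mean TPM and FPKM served as alternatives.

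Symbols, RNA types and coordinates come from GENCODE M21 (same build), by identifier without version. All 10 genes and all 143 other listed genes matched. Symbol Ddit3 also names a short M21 gene not used here. Levels are mean ± SD of 2 libraries. Detection required at least 1 TPM in each library. Ratios between replicates were taken on value + 0.1, so low genes appear closer than they are, with a threshold of 1.5-fold. TMM used edgeR 4.0.16 after filterByExpr (10926 genes) on rounded counts, and an alternative used size factors of DESeq2 1.42.0 in R 4.3.3. Other steps ran in Python 3.11.15 with numpy 2.4.6, pandas 2.3.3 and matplotlib 3.10.9. The ratio, motif and reading-frame steps were tested on simulated data. Depth was 50277914 and 47478888 expected counts, and reads carry no molecular identifiers, so limits set by 3 counts reflect counting error alone.

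Members and lists were chosen with earlier results of these data known. Named genes are all 10, and from each list up to 4 highest and up to 2 lowest and 8 fixed genes; others were chosen after their values were seen, and some marker genes that the rule names appear only in counts. Alternatives changed the TPM threshold, pseudocount, fold, unit, scaling and low-value filter and left out each replicate. Proteins of the genes were not analysed here. A few named genes are not reported here.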

Additional observations from a re-analysis of the deposited data

How the results depend on the processing

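The 10 detected genes stayed 10 at a TPM threshold of 0.5, after rescaling over nuclear protein-coding genes, on posterior mean TPM, on coding transcripts and without either replicate, and were 8 at a threshold of 5. The 27 detected ATF4 targets ranged from 21 to 28 over the alternatives run and from 27 to 28 without a replicate. The count of genes 1.5-fold or more apart was 1, but 0 with a pseudocount of 1, with TMM, with DESeq2 size factors, at 2-fold and on coding transcripts. The Eif2ak1 share of kinase TPM, 31.5%, was 34.4% on expected counts and 34.6% on coding transcripts, and 30.6% to 32.4% without a replicate. Ppp1r15b over Ppp1r15a, 3.22 on TPM, was 7.64 on expected counts, where length is not taken into account, and 2.89 to 3.55 without a replicate. Ddit3 over Atf4, 1.78, was 0.857 on expected counts and 0.871 on coding transcripts, and 1.55 to 2.00 without a replicate. Genes with 10% or more of TPM on transcripts without a coding sequence numbered 8, but 4 on expected counts (against 42.2% and 29.9% of detected nuclear protein-coding genes), and 5 to 8 without a replicate (5 without replicate 2). The alternative on coding transcripts was added after the data were seen. No paired analysis was possible because the series has 1 group. Trib3, with 70 and 81 counts, and Eif2ak3, with 295 and 304, are the genes that depth limits most.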

Other observations

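Genes of heme synthesis (Alas2 and Fech), heme sensing and heme breakdown, which bear on the supply to which the heme-regulated kinase responds, were all detected (5 of 5). Of all nuclear protein-coding genes 40.2% were. Fech, which puts iron into heme, had 87.96 and 92.04 TPM (replicate 1 first), far above the heme-sensing repressor gene Bach1 at 4.02 and 3.57. Alas2, the other synthesis gene listed, had 10.79 and 10.59. The constitutive heme oxygenase gene Hmox2, at 11.51 and 13.16, stood above the inducible Hmox1, at 5.08 and 4.09, without overlap between the libraries.

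Of 80 pathway genes outside the 10 whose mean reached 1 TPM, 3 (3.75%) were 1.5-fold or more apart between the libraries, below the 7.98% over all nuclear protein-coding genes. Sdf2l1, a chaperone cofactor of the endoplasmic reticulum, had 3.04 and 5.60 TPM on 99 and 173 counts. Herpud1, which acts in the removal of misfolded proteins, had 5.94 and 9.26 TPM on 310 and 353 counts. Atf6b, a relative of the stress sensor ATF6, had 7.77 and 4.29 TPM on 361 and 311 counts.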
